A study of Mus musculus with 12 samples.

Results

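YAP (gene Yap1) and TAZ (gene Wwtr1) are transcriptional coactivators that act in the nucleus through the DNA-binding TEAD proteins. The Hippo kinases LATS1 and LATS2 phosphorylate both coactivators and keep them in the cytoplasm, and fibroblasts on stiff culture plastic are a classical setting in which YAP and TAZ are active. The secreted matrix proteins CYR61 and CTGF, the cardiac ankyrin repeat protein ANKRD1, the angiomotin family protein AMOTL2 and LATS2 itself are encoded by well-known YAP and TAZ target genes, and AMOTL2 and LATS2 act back on the coactivators. The 9 genes described here are Yap1, Wwtr1, Tead1, Lats1, Lats2, Cyr61 (now named Ccn1), Ctgf (now Ccn2), Ankrd1 and Amotl2. They were chosen by name as the coactivators, a partner, the kinases and the targets, with no measured value in the rule. Earlier results of these data were known when they were chosen. They are 9 of 23420 genes in the deposited count table. All BMAL1 regions within 50 kb of their starts were taken with them, which gave 9 of 4740 regions, near 7 of the 9 genes.

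All groups were embryonic fibroblasts of mice on a 129/sv background, deleted for Per1, Per2, Nr1d1 and Nr1d2 (each -/-) and carrying a PER2-ER transgene. The clock protein PER2 represses the transcriptional activator BMAL1, and 4-hydroxytamoxifen (4-OHT) binds the estrogen receptor, for which ER commonly stands in fusion proteins. Cells were given 1 µM 4-OHT for 4 h, or 0.1% ethanol (EtOH), its solvent, for the same time. The design text names the comparison as PER2 induced against not induced, by mRNA-seq and BMAL1 ChIP-seq. There were 2 libraries each of 4-OHT mRNA, EtOH mRNA, 4-OHT BMAL1 ChIP, EtOH BMAL1 ChIP, 4-OHT input and EtOH input. Cells without the transgene given 4-OHT were not analysed here, so an effect of 4-OHT itself and one of PER2-ER cannot be told apart. The labels do not say whether the 2 libraries of a group came from separate cultures, so the p-values rest on a spread between libraries that may be technical.

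The mRNA libraries held between 60267540 and 89695667 reads counted in genes, and the ChIP and input libraries between 12481308 and 33454366 reads. Of 11 fibroblast markers, 9 passed the filter on low counts, while Thy1 and Lum were at 0 in every library. Summed counts per 1000000 reads (CPM) of the 11 were 27667 and 29534 with 4-OHT and 29353 and 27084 with EtOH. Fn1 was the highest, at a mean of 9852 CPM, and Dcn passed the filter at between 0.115 and 0.199 CPM. Summed CPM of 6 muscle markers, whose tissue is a classical source of Ankrd1, was between 0.763 and 1.08, with Myod1, Ckm and Myf5 at 0. The summed CPM of 6 epithelial and that of 6 myeloid markers lay between 19.3 and 31.0. That of 6 endothelial markers was 1.15 and 1.27 with 4-OHT, against 2.47 and 2.78 with EtOH, with Cdh5 and Tie1 at 0. This fall was that of Kdr, with 0.961 and 1.12 CPM with 4-OHT, against 2.37 and 2.71 with EtOH. Pecam1 and Tek, at 0.0884 CPM or less, were higher in both 4-OHT libraries than in both EtOH libraries, and Emcn overlapped. The part of these markers in the results was not tested. The genes given as knocked out were still counted in all 4 libraries. Nr1d1, a known BMAL1 target, had 16.4 and 17.5 CPM with 4-OHT, against 49.2 and 56.0 with EtOH, and Per2 had between 550.4 and 609 CPM. Which exons the deletions remove, and how far transgene reads are counted as Per2, was not tested.

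The bases upstream of 5 of the starts are shown first, because BMAL1 binds the E-box CACGTG, usually with CLOCK, and TEAD proteins bind CATTCC. Yap1, Lats2, Lats1 and Cyr61 had a BMAL1 region that overlapped these bases, and Ankrd1, a target without a region within 50 kb, is set beside them. Sequences are the 250 bases before the start from RefSeq (GRCm38.p6), on the gene's own strand from 5′ to 3′. Capitals mark matches to CACGTG, to CACGTT or its reverse complement AACGTG, and to CATTCC or its reverse complement GGAATG. None of the matches overlap each other.
Yap1 (chr9:8004597-8004846, minus strand): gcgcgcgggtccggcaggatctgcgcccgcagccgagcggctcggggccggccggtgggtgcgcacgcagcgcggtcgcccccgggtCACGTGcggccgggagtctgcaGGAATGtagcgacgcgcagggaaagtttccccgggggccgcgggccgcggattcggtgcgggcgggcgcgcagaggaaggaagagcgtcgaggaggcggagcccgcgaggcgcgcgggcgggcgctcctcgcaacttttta
Lats2 (chr14:57746124-57746373, minus strand): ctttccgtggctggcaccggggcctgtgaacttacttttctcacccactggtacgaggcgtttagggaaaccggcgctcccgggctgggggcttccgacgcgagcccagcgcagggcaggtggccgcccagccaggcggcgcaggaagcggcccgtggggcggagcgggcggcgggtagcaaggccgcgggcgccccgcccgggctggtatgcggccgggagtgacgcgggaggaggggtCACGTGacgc
Lats1 (chr10:7680959-7681208, plus strand): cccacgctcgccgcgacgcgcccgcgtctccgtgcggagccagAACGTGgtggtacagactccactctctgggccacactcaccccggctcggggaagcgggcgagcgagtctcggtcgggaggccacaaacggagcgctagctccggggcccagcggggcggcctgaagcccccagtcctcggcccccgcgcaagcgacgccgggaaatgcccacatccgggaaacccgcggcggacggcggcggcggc
Cyr61 (chr3:145649986-145650235, minus strand): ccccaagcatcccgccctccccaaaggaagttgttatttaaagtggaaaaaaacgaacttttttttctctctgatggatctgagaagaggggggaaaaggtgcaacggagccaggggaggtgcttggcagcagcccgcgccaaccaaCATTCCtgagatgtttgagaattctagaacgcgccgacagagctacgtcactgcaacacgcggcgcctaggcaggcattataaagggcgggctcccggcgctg
Ankrd1 (chr19:36119845-36120094, minus strand): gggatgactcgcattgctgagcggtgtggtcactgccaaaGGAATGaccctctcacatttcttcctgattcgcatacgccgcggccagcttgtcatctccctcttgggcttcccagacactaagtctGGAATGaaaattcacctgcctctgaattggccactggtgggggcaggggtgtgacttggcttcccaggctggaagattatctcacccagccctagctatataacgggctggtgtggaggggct
The Yap1 promoter held an E-box whose first base lies at -163 from the start and a GGAATG at -141, both inside its BMAL1 region. The Lats2 promoter held an E-box at -10 and, past the bases shown, a GGAATG at 5, both inside its region, and the Lats1 promoter an AACGTG at -207, outside its region. The Cyr61 promoter held a CATTCC at -103 inside its region and no E-box in this window. The Ankrd1 promoter held GGAATG at -210 and at -123. Both strands were searched in 300 bases, from 250 before to 50 after the start, of all 32817 RefSeq promoters, among them those of 7 of the 9 genes. Of those not shown, Amotl2 held a CATTCC at -65. Wwtr1 held a GGAATG at -136 from one start, which is -170 from the other. Neither match was inside a BMAL1 region, and a further Lats2 promoter held no match. CACGTG stood in 7.15% of all promoters and in 37.9% of the 2302 that overlap a BMAL1 region. CACGTT or its complement stood in 4.69% of all and 7.43% of those with a region. CATTCC or its complement stood in 14.7% of all and 11.1% of those with a region. A match is a run of letters and does not show binding.

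With 4-OHT, the mRNAs of Cyr61 and Ankrd1 were lower than with EtOH, while those of Yap1 and Wwtr1 overlapped between the treatments. Cyr61 was 1.20-fold lower and Ankrd1 1.18-fold lower (on the log2 scale they fell by 0.27 ± 0.062 and by 0.23 ± 0.067, SE, n = 2 libraries per treatment). Thus 2 of the 9 genes were called lower and 0 were called higher by edgeR's quasi-likelihood test at a Benjamini-Hochberg adjusted p below 0.05. Over all 13216 genes tested, 1.63% were called lower, 0.802% higher and 2.44% in either direction. In 7 of the 9 genes, every 4-OHT library had a lower CPM than every EtOH library, which held for 18.3% of all genes tested, and in 0 of the 9 was every 4-OHT library higher, against 18.7% of all. An unadjusted p under 0.05 was reached by 5 of the 9 (Lats1, Lats2, Ctgf, Cyr61 and Ankrd1), against 10.1% of all genes tested. The median log2 change of the 9 genes was -0.13, beside 0.00 for all genes tested. Because the 9 genes were chosen with earlier results of these data known, these contrasts are descriptive only.

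Yap1, the first coactivator (chr9:7932001-8004596, minus strand, mm10), had 181 and 176 CPM with 4-OHT, against 178 and 174 CPM with EtOH. The groups overlapped, and the log2 change was 0.02, with a 95% interval of -0.11 to 0.15 (edgeR adjusted p = 0.978). Wwtr1, which encodes TAZ (chr3:57455644-57575910, minus strand), had 281 and 265 CPM with 4-OHT, against 261 and 279.7 CPM with EtOH. These groups overlapped too, with a log2 change of 0.01 and an interval of -0.12 to 0.14 (edgeR adjusted p = 0.988). For both coactivators the intervals stayed within 0.15 on the log2 scale in either direction. They rest on a spread between 2 libraries that may be technical, so a larger change is not excluded. Tead1, the DNA-binding partner (chr7:112679320-112906805, plus strand), had 182 and 179 CPM with 4-OHT, against 200.2 and 194 CPM with EtOH. Both 4-OHT libraries were below both EtOH libraries. The log2 change of Tead1 was -0.13, with an interval of -0.26 to 0.00, and did not pass the test (edgeR adjusted p = 0.506).

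The kinase genes did not pass the test, although their groups did not overlap. Lats1 (chr10:7681209-7716461, plus strand) had 146 and 138 CPM with 4-OHT, against 153 and 159 CPM with EtOH. Its log2 change was -0.14, with an interval of -0.27 to -0.01 (edgeR adjusted p = 0.407). Lats2, kinase and target gene in one (chr14:57689662-57746123, minus strand), had 76.4 and 76.1 CPM with 4-OHT, against 84.3 and 83.4 CPM with EtOH. The Lats2 libraries of a group lay close together and the groups apart, with a log2 change of -0.14 and an interval of -0.27 to 0.00 (edgeR adjusted p = 0.465). The ratio of Lats1 to Lats2 in RPKM was 1.47 and 1.39 with 4-OHT and 1.40 and 1.47 with EtOH, so the ranges of the groups overlapped.

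Cyr61 encodes a secreted matrix protein of the CCN family (chr3:145646971-145649985, minus strand). It had 602 and 625 CPM with 4-OHT, against 736 and 741 CPM with EtOH. Both 4-OHT libraries were below both EtOH libraries, and the log2 change of -0.27 had an interval of -0.39 to -0.14 (edgeR adjusted p = 0.00654). The call was lost without EtOH replicate 1 (edgeR adjusted p = 0.113) and without EtOH replicate 2 (edgeR adjusted p = 0.177). Ankrd1, which encodes a cardiac ankyrin repeat protein (chr19:36111965-36119844, minus strand), had 106 and 97.7 CPM with 4-OHT, against 113 and 126 CPM with EtOH. The groups were apart, but by less than the gap between the EtOH libraries. The log2 change of -0.23 had an interval of -0.37 to -0.10 (edgeR adjusted p = 0.0470). The Ankrd1 call was lost with DESeq2 (adjusted p = 0.0886), with library sizes alone as scaling (0.0807) and with upper-quartile factors (0.0520). It was also lost without 4-OHT replicate 2 (edgeR adjusted p = 0.539), EtOH replicate 1 (0.0622) or EtOH replicate 2 (1.00). The 6 muscle markers were near 0 in every library, as given above, and only Kdr among the markers of other cell types was called. The smooth muscle actin gene Acta2, which is not among those 6, had 1074 and 1109 CPM with 4-OHT, against 1112 and 1176 CPM with EtOH. The Acta2 change did not pass the test (log2 change -0.07, edgeR adjusted p = 0.830). Whether muscle or other cells have a part in the Ankrd1 change was not tested.

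The other targets did not pass the test. Ctgf, the nearest relative of Cyr61 in this set (chr10:24595442-24598682, plus strand), had 285 and 285 CPM with 4-OHT, against 312 and 312 CPM with EtOH. The libraries of a group nearly coincided and the groups were apart, yet the log2 change of -0.13 (interval -0.26 to -0.01) had an edgeR adjusted p of 0.448. Amotl2, a YAP-binding angiomotin (chr9:102717804-102733417, plus strand), had 163 and 172 CPM with 4-OHT, against 188 and 179 CPM with EtOH. Its log2 change was -0.13 (interval -0.26 to 0.00, edgeR adjusted p = 0.514). The ratio of Cyr61 to Ctgf in RPKM was 2.50 and 2.60 with 4-OHT, against 2.79 and 2.81 with EtOH. The ranges of this ratio did not overlap, and the difference was not tested. The interval of the Cyr61 log2 change, -0.39 to -0.14, overlapped that of Ctgf.

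**Figure D1:**
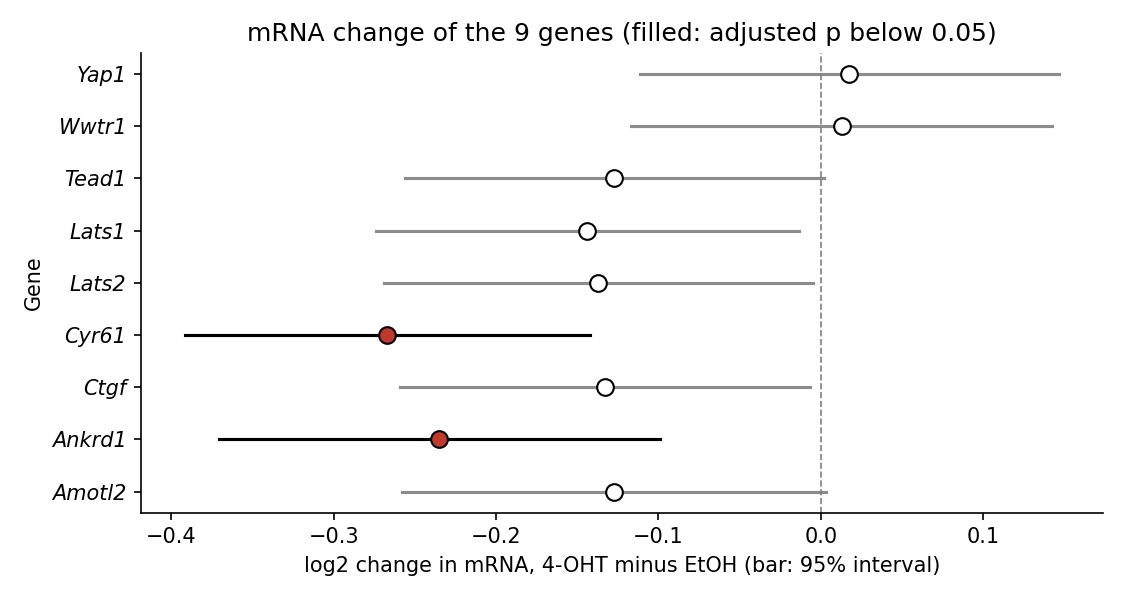
Log2 change in mRNA, 4-OHT minus EtOH, for each of the 9 genes, with bars for the 95% interval of the edgeR fit over 2 libraries per group. Filled points are genes with an adjusted p below 0.05, Cyr61 at -0.27 and Ankrd1 at -0.23, while Yap1 and Wwtr1 sit at 0.02 and 0.01.

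The authors' deposited table of their own DESeq2 comparison lists 5 of the 9 genes. Of the 3016 genes with an adjusted p in the authors' deposited table, 82 (2.72%) were marked as passing their threshold. Cyr61 was among them, with a log2 change of -0.23 and an adjusted p of 3.32e-04 in the authors' deposited table. Ctgf (-0.12), Lats1 (-0.12), Lats2 (-0.12) and Yap1 (0.01) were not marked in the authors' deposited table.

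Levels can be set between genes only per length, as RPKM, the CPM per kb of counted exon. Cyr61 was by far the most abundant of the 9 mRNAs, at 303 ± 8.27 RPKM with 4-OHT and 364 ± 1.72 RPKM with EtOH (SD, n = 2 each). That placed it above 99.2% of the genes tested with 4-OHT and above 99.3% with EtOH. Ctgf followed at 118 RPKM with 4-OHT and 130 RPKM with EtOH. Next came Ankrd1 at 57.6 ± 3.21 with 4-OHT and 67.8 ± 5.13 RPKM with EtOH, and Wwtr1 at 57.0 ± 2.33 with 4-OHT and 56.5 ± 2.76 RPKM with EtOH. The RPKM ranges of Ankrd1 and Wwtr1 overlapped with 4-OHT and did not overlap with EtOH. Yap1 had 42.8 ± 0.726 RPKM with 4-OHT and 42.3 ± 0.677 with EtOH, and Amotl2 had 40.0 ± 1.48 with 4-OHT and 43.7 ± 1.49 with EtOH. Their ranges overlapped with EtOH only, and Yap1 was the higher of the pair with 4-OHT. At the low end stood Lats1 (19.6 with 4-OHT and 21.7 RPKM with EtOH), Tead1 (18.1 with 4-OHT and 19.8 RPKM with EtOH) and Lats2 (13.7 with 4-OHT and 15.1 RPKM with EtOH). No other neighbours in either order overlapped. The RPKM ratio of Yap1 to Wwtr1 was 0.739 and 0.764 with 4-OHT and 0.784 and 0.715 with EtOH, so TAZ mRNA exceeded YAP mRNA in all 4 libraries.

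**Figure D2:**
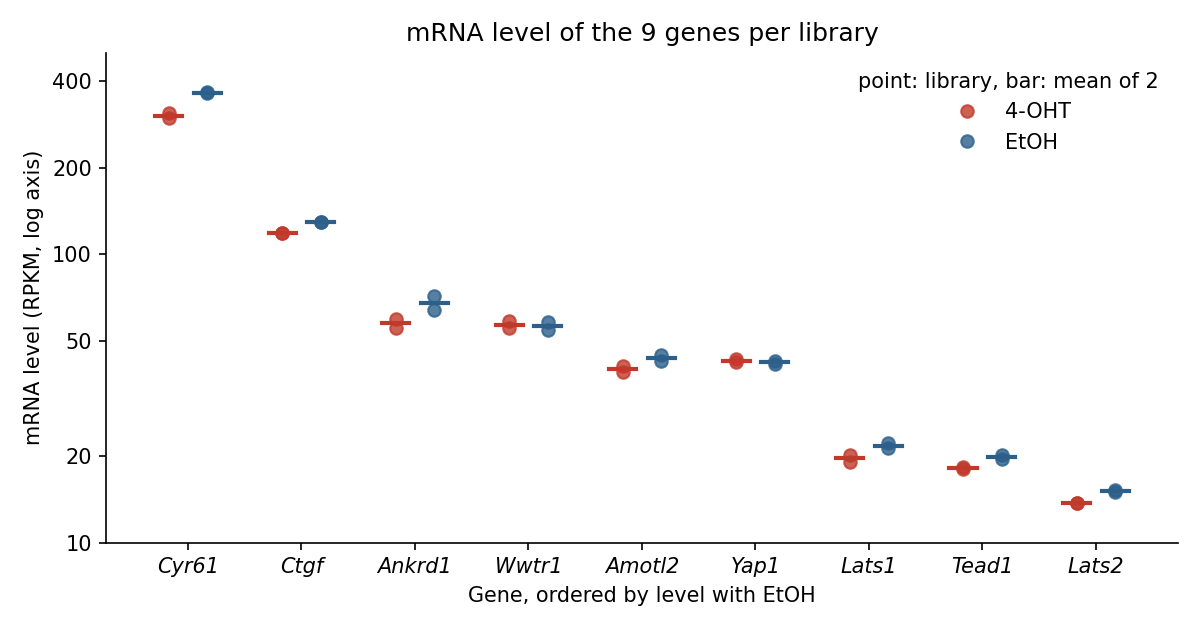
mRNA level of the 9 genes in RPKM on a log axis, with a point for each of 2 libraries per treatment and a bar for their mean, 4-OHT left of EtOH within each gene. Cyr61 stands highest, at 303 RPKM with 4-OHT and 364 RPKM with EtOH, and Lats2 lowest, at 13.7 RPKM with 4-OHT and 15.1 RPKM with EtOH.

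Related genes were read from 6 lists, some of which hold members of the 9. Their counts stand beside 2.44% of all genes tested called in either direction, 1.63% lower and 0.802% higher, so 0 calls in a list this short is near the share of all genes. Among 11 Hippo core kinases and adaptors, 0 were called, and the median log2 change was -0.05. Among 16 upstream Hippo regulators, 0 were called, with a median of 0.01. Of 9 genes for YAP, TAZ, TEAD and VGLL proteins 8 were tested and 0 called, with a median of -0.03. SRF and MRTF form the actin-sensing pathway that shares many target genes with YAP. Their list of 17 genes held targets and also Srf, Mkl1 and Mkl2, the genes of SRF and MRTF themselves. Of the 17, 0 were called, and 16 had a change below 0 (median -0.06), where 49.1% of all genes tested did. With library sizes alone as scaling 14 of the 17 were below 0, without 4-OHT replicate 1 it was 12, and without either EtOH replicate it was 14.

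A 22-gene list of YAP and TAZ targets had 21 genes tested, of which 3 were called lower and 0 higher, where 1.63% of all genes tested were called lower and 0.802% higher. The 3 were Cyr61 and Ankrd1, already counted among the 9 genes, and Tgfb2, and the list's median log2 change was -0.11. Tgfb2, which encodes a secreted TGF-beta ligand, had 95.6 and 91.3 CPM with 4-OHT, against 151 and 161 CPM with EtOH. It was 1.67-fold lower (log2 change -0.74, interval -0.87 to -0.61, edgeR adjusted p = 2.02e-11), and its log2 change stayed between -0.79 and -0.69 in the alternatives run. The other 18 genes of the list did not pass the test, among them 8 with a change above 0.

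The CCN family, to which Cyr61 and Ctgf belong, split in direction. Of 6 members 5 were tested, of which 2 were called lower, Cyr61 and Nov, and 1 higher, Wisp1, beside 1.63% lower and 0.802% higher of all genes tested. The median log2 change was -0.16, and Cyr61 is again the gene counted among the 9. Nov, a CCN matrix protein gene, had 544 and 547 CPM with 4-OHT, against 629 and 653 CPM with EtOH (log2 change -0.23, edgeR adjusted p = 0.0254). Wisp1, another CCN gene and a known WNT target, had 166 and 156 CPM with 4-OHT, against 138 and 137 CPM with EtOH (log2 change 0.22, edgeR adjusted p = 0.0497). The treatments were apart for both genes, but leaving out 1 library could end either call. The Nov call was lost with library sizes alone as scaling (edgeR adjusted p = 0.0502) and without 4-OHT replicate 2 (0.0606), EtOH replicate 1 (0.162) or EtOH replicate 2 (0.592). The Wisp1 call was lost without 4-OHT replicate 1 (edgeR adjusted p = 0.219), EtOH replicate 1 (0.363) or EtOH replicate 2 (0.600).

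**Figure D3:**
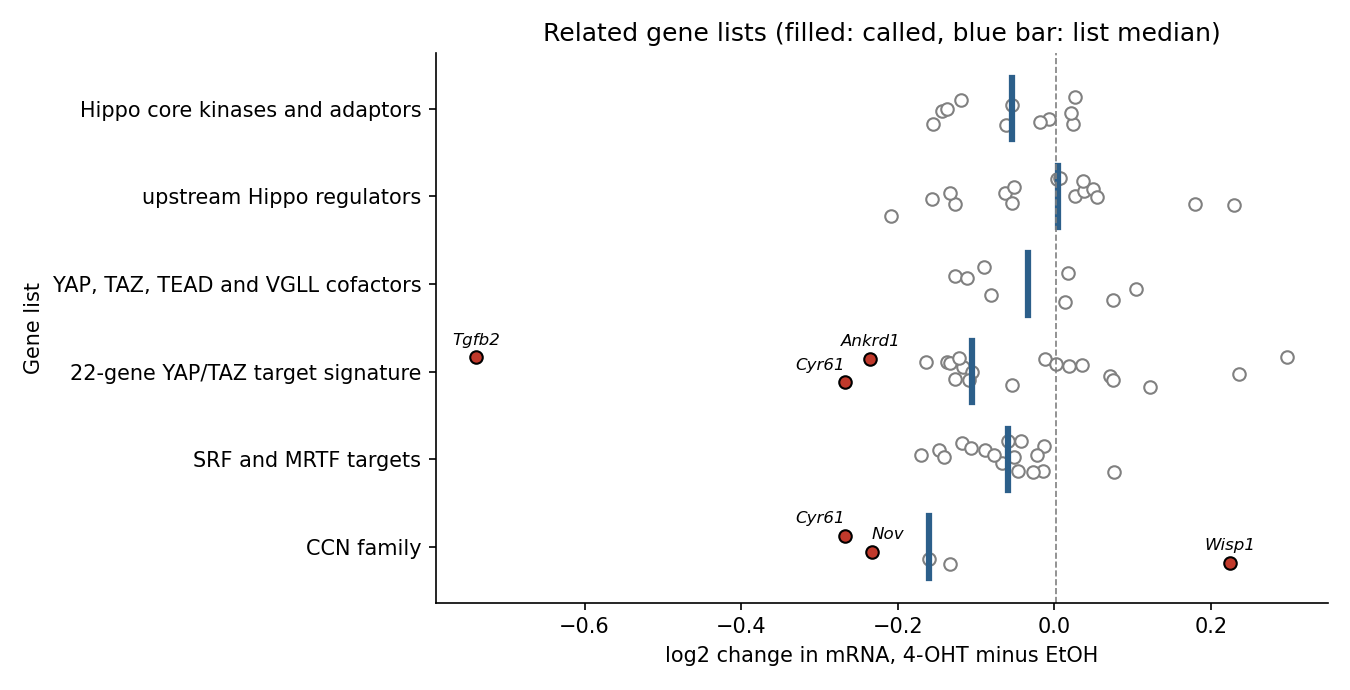
Log2 change in mRNA, 4-OHT minus EtOH, for the tested genes of 6 related lists, with filled points for called genes, a blue bar for each list's median and a dashed line for the median of all genes tested. Tgfb2 at -0.74 stands apart from the other genes, and the CCN family holds Cyr61 and Nov below 0 and Wisp1 at 0.22.

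The genes whose CPM followed the called members most closely over the 4 mRNA libraries were found by Euclidean distance in centred log2 CPM. For Cyr61 they were Loxl4 (distance 0.0202), Mir22hg (0.0259) and Adarb1 (0.0346). Loxl4 and Adarb1 were called lower in the same fit. For Ankrd1 they were Zfand4 (0.0111), Vezf1 (0.0196) and Fut8 (0.0226), of which Vezf1 was called lower. These distances rest on the same 4 libraries as the fit. Similar changes and calls therefore follow from how the genes were picked and are no further evidence.

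BMAL1 binding was read next, as reads per 10000000 library reads (RP10M) in regions the authors called on EtOH-treated cells. With 4-OHT, BMAL1 signal was lower than with EtOH at all 9 regions near these genes. Summed over the 9 regions it was 72.0 and 75.3 RP10M with 4-OHT, against 208 and 193 RP10M with EtOH. The summed inputs were 16.0 and 20.6 RP10M with 4-OHT and 16.0 and 18.8 RP10M with EtOH. By edgeR's quasi-likelihood test with the library totals, 9 of 9 regions were called lower, where 93.8% of all 4740 regions were. In 9 of 9, both 4-OHT libraries were below both EtOH libraries, which held for 98% of all regions. The regions were called on EtOH-treated cells, which favours sites with a high EtOH signal. These shares are near those of all regions and say nothing particular to these genes. The median log2 change was -1.47 at the 9 regions and -1.66 at all regions. A difference in ChIP yield between the treatments would also move most regions together, and it was not tested. A loss of BMAL1 at a region is therefore a loss of ChIP signal here. Scaling on the regions themselves moves the median of all regions to 0.02 and, with it, 7 of the 9 regions to a change above 0. Then 0 of the 9 were called lower and 1 higher, where 4.81% of all regions were called lower and 1.39% higher. Counts behind the values are small, between 3 and 78 ChIP reads per region and library, so the intervals are wide.

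A region lay within 50 kb for 7 of the 9 genes (77.8%), beside 45.5% of all genes tested, and within 10 kb for 6 (66.7%), beside 27.1%. In the 6 related lists the share within 50 kb ran from 37.5% (upstream Hippo regulators) to 100% (CCN family). Within 10 kb it ran from 12.5% (YAP, TAZ, TEAD and VGLL genes) to 60% (CCN family). At the coactivator gene Yap1, a region covered the start (chr9:8004531-8004870, the E-box shown above lies in it). It had 10.2 and 20.8 RP10M with 4-OHT, against 57.8 and 35.7 RP10M with EtOH, the highest EtOH mean of the 9. Its EtOH range overlapped that of the Cyr61 start, at 24.4 and 36.9 RP10M. BMAL1 at the Yap1 start was 2.82-fold lower (log2 change -1.50, interval -2.06 to -0.93, edgeR adjusted p = 5.79e-07) while Yap1 mRNA did not pass its test. Without 4-OHT replicate 2 the log2 change at the Yap1 start was -2.16. A weaker region in an intron, 814 bp downstream of the start (chr9:8003523-8003782), had 13.8 and 5.31 RP10M with 4-OHT, against 28.9 and 15.3 RP10M with EtOH. Its log2 change was -1.27 (edgeR adjusted p = 6.53e-04), and -2.00 without 4-OHT replicate 1. The call was lost without 4-OHT replicate 2 (log2 change -0.63, edgeR adjusted p = 0.157) and without EtOH replicate 1 (0.141).

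Wwtr1 had no region at its start. Its region lies in an intron 20124 bp downstream (chr3:57555621-57555786) and had 2.18 and 3.86 RP10M with 4-OHT, against 25.9 and 24.4 RP10M with EtOH. This was the largest loss of the 9 regions, 7.73-fold (log2 change -2.95, interval -3.80 to -2.10, edgeR adjusted p = 5.59e-11), and 0.675% of all regions had a more negative change. With 4-OHT the Wwtr1 region was 1.43-fold above its input and did not pass the test (edgeR adjusted p = 0.443), while with EtOH it was 7.93-fold above input (edgeR adjusted p = 3.64e-10). Tead1 had no region within 50 kb.

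At the kinase gene Lats2 a region covered the start, with the E-box at -10 inside it (chr14:57746057-57746268). It had 2.18 and 6.76 RP10M with 4-OHT, against 19.3 and 22.7 RP10M with EtOH, a 4.28-fold loss (log2 change -2.10, interval -2.90 to -1.29, edgeR adjusted p = 9.34e-07). Without 4-OHT replicate 2 the log2 change was -3.23. With EtOH the Lats2 region stood 39.3-fold above input, the highest ratio of the 9, over EtOH inputs of 0 and 2 reads. The Lats1 region lies 61 bp upstream of the start (chr10:7681041-7681148) and 10 bp from the start of the neighbouring gene BC020402. It had the weakest EtOH signal of the 9, with 5.09 and 3.86 RP10M with 4-OHT, against 10.4 and 9.07 RP10M with EtOH (log2 change -1.13, edgeR adjusted p = 0.0230). The Lats1 call was lost without 4-OHT replicate 2 (edgeR adjusted p = 0.130), EtOH replicate 1 (0.127) or EtOH replicate 2 (0.0756).

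Among the targets, the region at the Cyr61 start (chr3:145649864-145650149) had the smallest log2 change with all libraries in. Without 4-OHT replicate 1 it was -0.97, beyond the -0.81 of the region upstream of Cyr61, and without EtOH replicate 1 it was -0.94, beyond the -0.77 of the Yap1 intron. The Cyr61 start had 23.3 and 15.9 RP10M with 4-OHT, against 24.4 and 36.9 RP10M with EtOH, so the groups nearly met. BMAL1 there was 1.63-fold lower (log2 change -0.70, interval -1.28 to -0.12, edgeR adjusted p = 0.0192), and 96.5% of all regions had a more negative change. The call was lost without 4-OHT replicate 2 (edgeR adjusted p = 0.247) and without EtOH replicate 2 (0.414). With scaling on the regions, the Cyr61 start was called higher (log2 change 0.98, edgeR adjusted p = 0.0154). A further Cyr61 region 3453 bp upstream (chr3:145653438-145653618) had 3.64 and 8.21 RP10M with 4-OHT, against 14.8 and 14.2 RP10M with EtOH (log2 change -1.19, edgeR adjusted p = 0.00637). With 4-OHT it did not pass the test against input (1.93-fold above, edgeR adjusted p = 0.0866), and its loss did not pass without 4-OHT replicate 1 (0.0710) and was -1.97 on the log2 scale without 4-OHT replicate 2. The Ctgf region covers the start (chr10:24595406-24595582) and had 6.55 and 6.28 RP10M with 4-OHT, against 15.6 and 19.8 RP10M with EtOH (log2 change -1.47, edgeR adjusted p = 4.11e-04). The Amotl2 region, in an intron 6416 bp downstream (chr9:102724220-102724430), had 5.09 and 4.35 RP10M with 4-OHT, against 11.1 and 15.3 RP10M with EtOH (log2 change -1.51, edgeR adjusted p = 0.00126). The Amotl2 call was lost without EtOH replicate 2 (edgeR adjusted p = 0.0661). Ankrd1 had no region within 50 kb, and the nearest lay 94813 bp from its start. The regions next beyond the 50 kb limit lay 52002 bp from Lats2, 73565 bp from Cyr61 and 88176 bp from Wwtr1, while the farthest one inside it was the Wwtr1 intron. Those beyond Lats2 and Cyr61 covered the starts of Sap18 and Znhit6. The one beyond Wwtr1 was nearer the start of Tm4sf4, at 62017 bp. The one beyond Lats2 had 3.64 and 2.90 RP10M with 4-OHT, against 8.89 and 11.3 RP10M with EtOH.

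**Figure D4:**
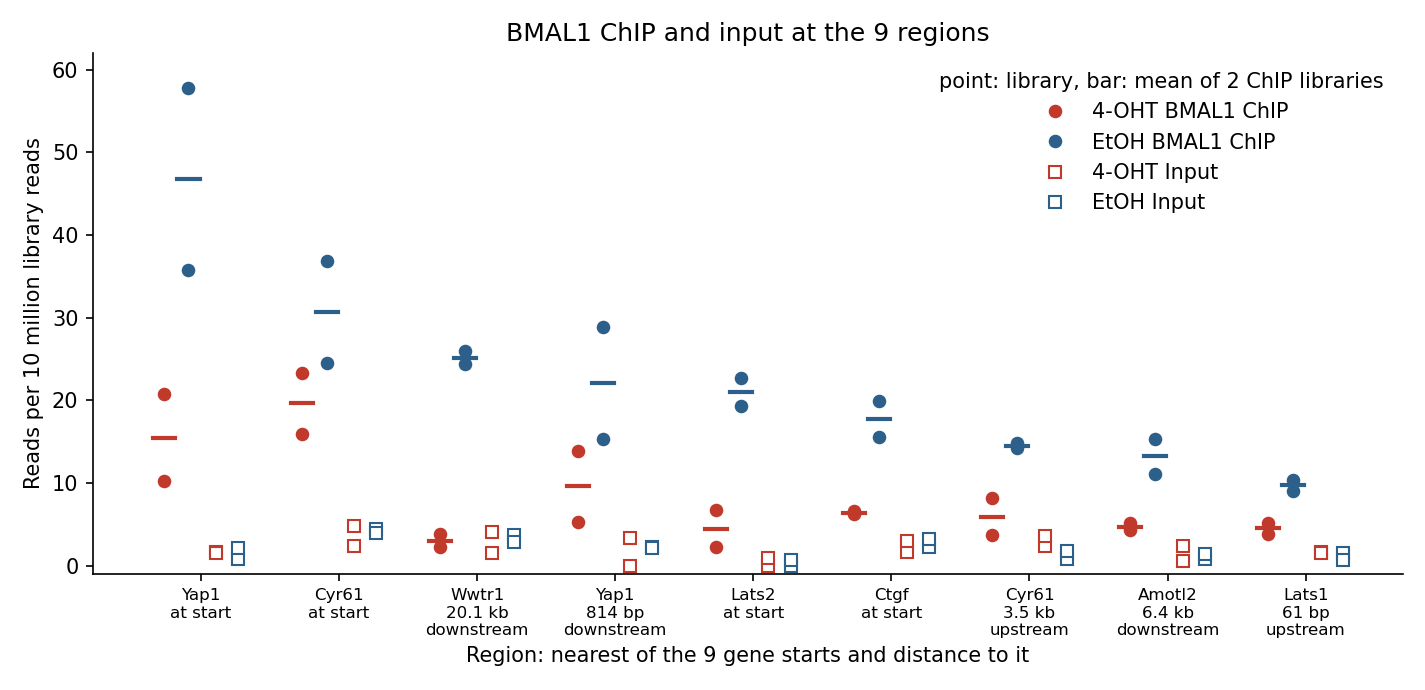
BMAL1 ChIP and input signal in RP10M at the 9 regions, ordered by EtOH signal, with points for libraries and bars for the mean of 2 ChIP libraries. EtOH ChIP stands above 4-OHT ChIP at each region, and both inputs lie between 0 and 4.78 RP10M.

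Set against input within each treatment, 7 of the 9 regions were above input with 4-OHT, where 80.6% of all regions were, and 9 of 9 with EtOH, where 99.5% were (edgeR over all 8 libraries). The EtOH count restates how the regions were chosen, since they were called on EtOH-treated cells, and shows nothing further. The median fold over input was 3.69 with 4-OHT and 9.75 with EtOH at the 9 regions, beside 3.68 with 4-OHT and 12.2 with EtOH at all regions. Between the inputs of the treatments 0 of the 9 regions were called, and 0 of 4740 regions were called between them by edgeR, with 218 (4.6%) at an unadjusted p under 0.05. The EtOH input libraries differed from each other by no more than sampling noise (chi-square p = 0.568 over 2178 regions), and the 4-OHT ones by little more (p = 0.0452 over 2720 regions). As an alternative chosen after seeing the data, the inputs of each treatment were summed, which left 7 of the 9 regions above input with 4-OHT and 9 with EtOH. The change in ChIP relative to that in input was called lower at 2 of the 9 regions, where 50.5% of all regions were. They were the Wwtr1 intron and the upstream Cyr61 region. DESeq2 with the library totals called 4 of the 9 lower, where 70.2% of all regions were, at the Yap1 start, Wwtr1, Lats2 and Ctgf.

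**Figure D5:**
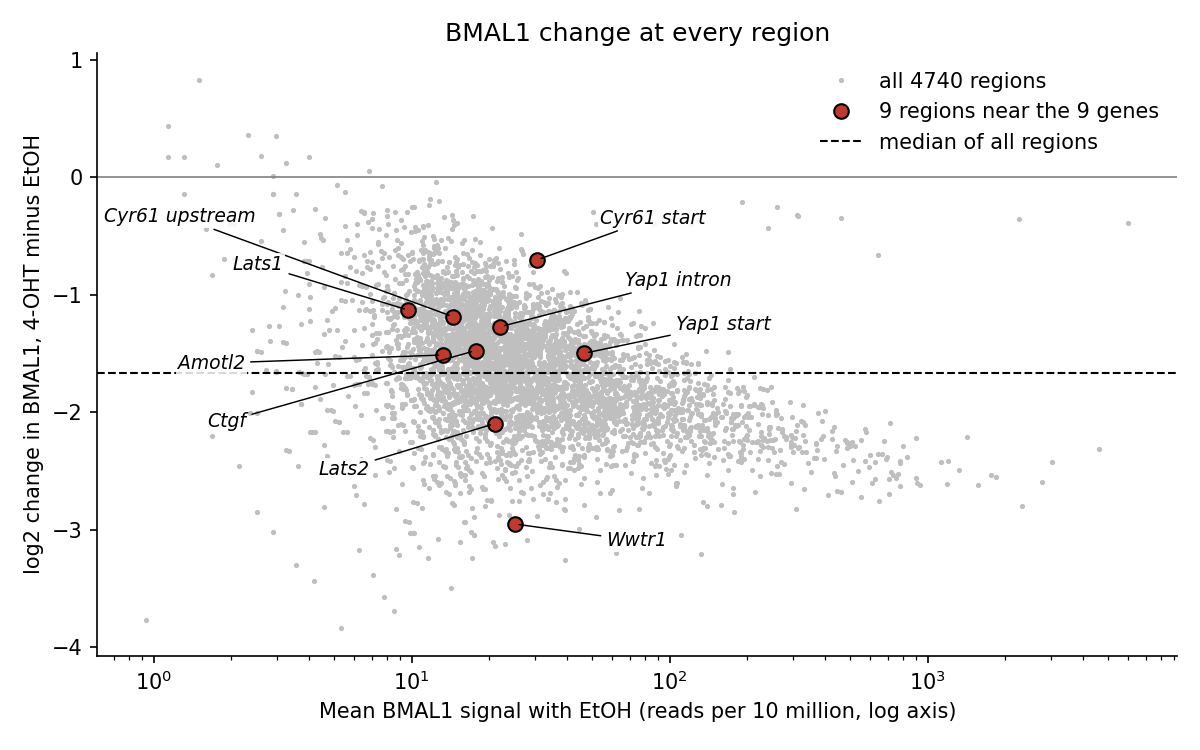
Log2 change in BMAL1 signal, 4-OHT minus EtOH, against mean EtOH signal in RP10M on a log axis for all 4740 regions in grey, with the 9 regions in red and a dashed line at the median of all regions, -1.66. The Cyr61 start at -0.70 lies at the upper edge of the cloud and Wwtr1 at -2.95 at its lower edge.

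Side by side, on the log2 scale, Wwtr1 had a BMAL1 change of -2.95 and an mRNA change of 0.01. Lats2 had a BMAL1 change of -2.10 and an mRNA change of -0.14. Amotl2 had a BMAL1 change of -1.51 and an mRNA change of -0.13. Yap1 had BMAL1 changes of -1.50 at its start and -1.27 in its intron, and an mRNA change of 0.02. Ctgf had a BMAL1 change of -1.47 and an mRNA change of -0.13. Lats1 had a BMAL1 change of -1.13 and an mRNA change of -0.14. Cyr61 had BMAL1 changes of -0.70 at its start and -1.19 upstream, and an mRNA change of -0.27. Ankrd1, with an mRNA change of -0.23, and Tead1, with -0.13, had no region within 50 kb. Of these mRNA changes, those of Cyr61 and Ankrd1 passed the test. Whether loss of BMAL1 at a region contributes to any mRNA change was not tested.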

How the data were processed

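Per the file headers, the authors counted reverse-stranded reads in the exons of each UCSC mm10 gene, using featureCounts v1.5.0-p1. Counts per BMAL1 region were deposited for each ChIP and input library. The 4740 regions do not differ between the 8 libraries and carry names of control MACS2 peaks, per the files, so a site bound only with 4-OHT would not be among them. The submitters' processing notes name mm10, bedtools 2.25.0 and DESeq2. No aligner is given in the sources used here. The authors' per-region fold (a ratio), −log10 p and q and score were deposited with the regions and entered no test, other than a filter at a −log10 q of 5 as an alternative. The deposited signal table is named RPKM but holds 5 plus reads per 10000000 library reads, so the library totals were taken from it and the offset was removed. The authors' comparison table was deposited with a log2 fold change, a p-value and a test score per gene.

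The test of gene counts was edgeR 4.0.16 under R 4.3.3 (TMM factors, default expression filter, robust quasi-likelihood fit, Benjamini-Hochberg adjustment over all genes or regions tested, calls at an adjusted p below 0.05). Region counts were tested alike with the library totals and no further scaling, since scaling on the regions removes a change that most regions share. The library totals in turn keep any difference in ChIP yield between the treatments, which was not tested. SEs are the log2 change over the root of F, and intervals are 95%. CPM uses TMM library sizes and RPKM the counted exon length. DESeq2 1.42.0 was an alternative. The mRNA and BMAL1 fits were tested on simulated data with the same spread set for every gene or region. That does not show how they perform at the spread of these libraries. Distances run from the upstream end of a gene's outermost exon. Intervals cover neither mapping bias nor duplicate reads.

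Named genes are the 9 genes with all their regions, the called members of 6 lists (1 further list is not reported here), and the 3 tested genes nearest to each called member in log2 CPM with a prior count of 2. Members and lists were chosen with earlier results of these data known. Same-numbered libraries did not deviate together (correlation -0.17 in mRNA, 0.02 in BMAL1 ChIP), so numbers were not taken as pairs.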

Additional observations from a re-analysis of the deposited data

Results flagged for a closer look

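The change in BMAL1 ChIP relative to the change in input differed from 0 at 2 of the 9 regions, tested as an interaction of treatment and ChIP over all 8 libraries. At the Wwtr1 intron the ChIP change minus the input change was -2.47 on the log2 scale (edgeR adjusted p = 0.0115), with both 4-OHT ChIP libraries below both EtOH ones. At the region upstream of Cyr61 it was -2.34 (edgeR adjusted p = 0.0156). There the ChIP change was -1.19 and the input change 1.16, so each gave a similar part of the difference. The input reads were 3 and 12 with 4-OHT and 1 and 5 with EtOH. Of all regions, 50.5% passed the same test.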

How the results depend on the processing

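Of the 9 genes, 2 were called lower. DESeq2, library sizes alone and upper-quartile factors each left 1, the replicate block left 0, and leaving out 1 library left 0 to 2. With the block, the adjusted p was 0.109 for Cyr61, 0.279 for Ankrd1, 0.270 for Nov and 0.353 for Wisp1. A block with the numbers crossed, chosen after seeing the data, gave 7. Without 1 library the log2 mRNA change lay between -0.00012 and 0.036 for Yap1 and between -0.036 and 0.064 for Wwtr1. Of the other genes in all lists, the one not reported included, 1 was called higher and 3 lower. Those called higher were 2 with every gene that had a count and with library sizes alone, 0 with the block, 5 with the crossed block and 0 to 1 without 1 library. Those called lower were 1 with the block, 12 with the crossed block and 1 to 3 without 1 library. Over all genes, those called higher were 67 with DESeq2, 60 with the block, 518 with the crossed block and 40 to 196 without 1 library, beside 106. Those called lower were 611 with the crossed block and 140 to 247 without 1 library, beside 216.

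Of the 9 regions called lower, DESeq2 with library totals left 4 (3329 of all regions), the comparison with input left 2, and leaving out 1 library left 6 to 8. Scaling on the regions (TMM) gave 0 lower, 1 higher, and 0 above input with 4-OHT or with EtOH. Over all regions TMM gave 228 lower and 66 higher, DESeq2 with its own factors 133 lower and 13 higher, the comparison with input 2395 lower, and leaving out 1 library 3753 to 4234 lower, beside 4445. DESeq2 with its own factors gave no adjusted p for the 9 regions. The log2 changes under TMM that turned were 0.42 at the Yap1 intron, 0.20 at the Yap1 start, 0.54 at Lats1, 0.98 at the Cyr61 start, 0.50 upstream of Cyr61, 0.20 at Ctgf and 0.16 at Amotl2. ChIP over input turned under TMM with 4-OHT to -0.0073 at the Yap1 intron, -1.36 at Wwtr1, -0.39 at Lats1, -0.94 upstream of Cyr61 and -0.61 at Ctgf. With EtOH it turned to -0.42 at the Yap1 intron, -0.72 at Wwtr1, -0.39 at Lats1, -0.78 at the Cyr61 start, -0.39 upstream of Cyr61, -1.07 at Ctgf and -0.23 at Amotl2. TMM sets the median over regions to about 0 by construction. The cause of the other differences was not tested. With 2 libraries per group and 3 to 78 ChIP reads per region, small changes cannot be detected.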
